A study of Mus musculus with 92 samples.

Results

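Gene expression was compared between mouse myeloid progenitors labelled Adar1 KO (guide 1) and progenitors carrying a non-targeting control guide (NTC), 3 libraries each, taken by sample title as 6 of the 92 libraries in the series. The study uses ER-Hoxb8 cells, bone marrow progenitors of Cas9-expressing FVB mice that an estrogen-regulated Hoxb8 virus holds in a dividing, undifferentiated state, as a source of macrophages that can replace microglia. The genotypes are given as Cas9 het; Adar KO and Cas9 het; NTC, and both groups were grown in medium with beta-estradiol and GM-CSF. Cells carrying a guide virus were selected by sorting to make stable lines, so each group represents a transduced line and not a set of animals. The labels do not say that replicates came from separate cultures, so the p-values measure only the spread between these samples, which may be technical.

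ADAR1 is the enzyme that converts adenosine to inosine in double-stranded RNA, which keeps the cell's own transcripts from being read as viral by the sensor MDA5 (encoded by Ifih1). When the enzyme is missing, that sensor can drive type I interferon and, through JAK and STAT proteins, interferon-stimulated genes. Mutations in ADAR1 cause Aicardi-Goutieres syndrome, an inherited disease of the brain with constant interferon signalling. The comparison asks what differs in the progenitors before they are made into macrophages.

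Depth was 21.1, 22.1 and 17.3 M counts in KO replicates 1, 2 and 3 and 18.4, 21.2 and 23.2 M in NTC replicates 1, 2 and 3. A value of 3 counts corresponds to between -2.36 and -2.15 log2 CPM (counts scaled to a common library size), a floor that covers counting error only. The lowest value in the table, written for 0 counts in these libraries, is -3.43. Correlation across genes, which are not independent replicates, was 0.968 to 0.986 between libraries of a group and 0.966 to 0.981 between libraries of different groups.

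The libraries had the markers of neutrophil and monocyte progenitors. Mpo, the myeloperoxidase of primary granules, measured 14.09, 13.52 and 13.50 log2 CPM in KO replicates 1, 2 and 3 and 14.57, 14.15 and 13.97 in NTC. Kit, the stem cell factor receptor, measured 5.50, 4.90 and 5.00 in KO and 5.57, 4.62 and 4.97 in NTC. Both genes were well above the floor in all 6 libraries with overlapping groups. Within each replicate number, however, Mpo was lower in KO, by 0.47, 0.62 and 0.47 in numbers 1, 2 and 3. Its difference of -0.52 did not pass in limma (adjusted p = 0.676) but passed with a replicate block, a term for the number that libraries of both groups share (adjusted p = 0.0189). Cd34, a surface antigen of early progenitors, lay between -0.38 and 0.23. Csf1r, the M-CSF receptor, lay between 2.64 and 4.22, and the T cell gene Cd3e was at or just above the lowest value. None of the 12 tested progenitor genes passed in limma. At an unadjusted p under 0.05 there was 1 of them, beside 674 of all 10356 genes tested (6.51%). The 13 lymphoid genes did not reach the level for testing. A lowest value need not mean that a gene is silent, since Tyrobp, an adaptor common in myeloid cells, was also at -3.43 in all 6 libraries.

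The targeted gene itself was not lower in the edited cells. Adar mRNA measured 4.36, 4.23 and 4.24 log2 CPM in KO replicates 1, 2 and 3 and 4.20, 3.42 and 4.28 in NTC replicates 1, 2 and 3. NTC replicate 2 was the low library and the groups overlapped. The difference was 0.31 (log2, SE 0.22, limma adjusted p = 0.919), and without NTC replicate 2 it was 0.04. In an exact permutation test, two-sided, p was 0.4, where 3 against 3 libraries cannot give less than 0.1. Gene-level RNA does not show whether a small insertion or deletion is present, so these values cannot check the edit and the groups are named by their labels. The methods describe a check by sequencing the guide site in DNA of macrophages, which is not part of the deposited table. Adarb1, the related editing enzyme ADAR2, was below the limit for testing, and of the 5 genes in the ADAR family 2 were tested and 0 passed (1 at an unadjusted p under 0.05).

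Few genes differed between the lines, and the ones that differed most did so by large factors. For several of these, progenitors with a second guide did not differ from NTC in the same way (values below, not tested). Of 10356 genes tested, 26 (0.251%) had an adjusted p under 0.05 and a log2 difference of 2 or more in size: 8 rose (0.0772%) and 18 fell (0.174%) in the KO libraries. At adjusted p under 0.05 alone, 79 genes (0.763%) differed, 24 up and 55 down. The median difference over all tested genes was -0.01, and 92.2% of genes lay within 0.5 of 0 on the log2 scale. In 1157 genes (11.2%) the groups did not overlap, among them every one of the 26 and of the 79.

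**Figure D1:**
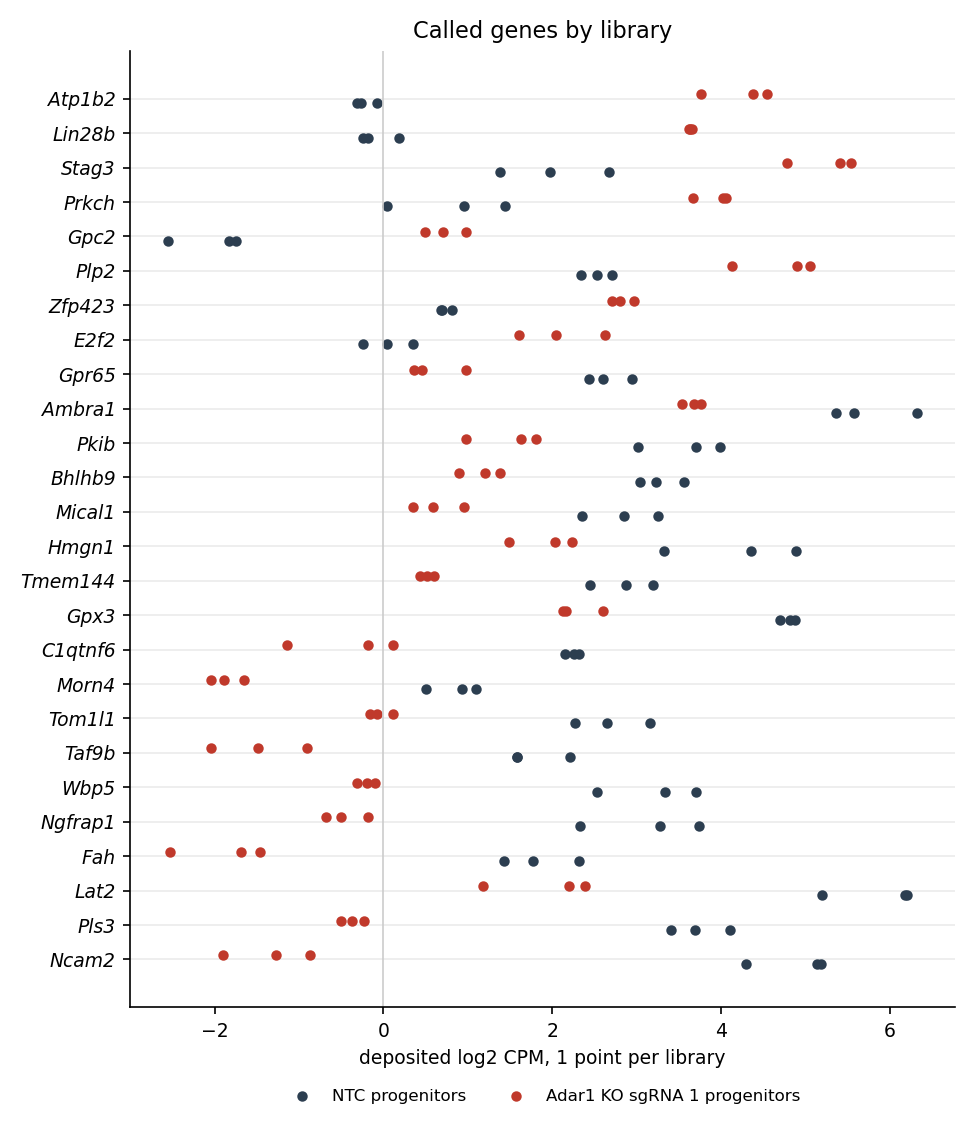
Level (log2 CPM) of the 26 genes in each of the 6 progenitor libraries, 1 point per library. The KO and NTC points of each gene do not overlap, from Atp1b2 (4.45) at the top to Ncam2 (-6.22) at the bottom.

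**Figure D2:**
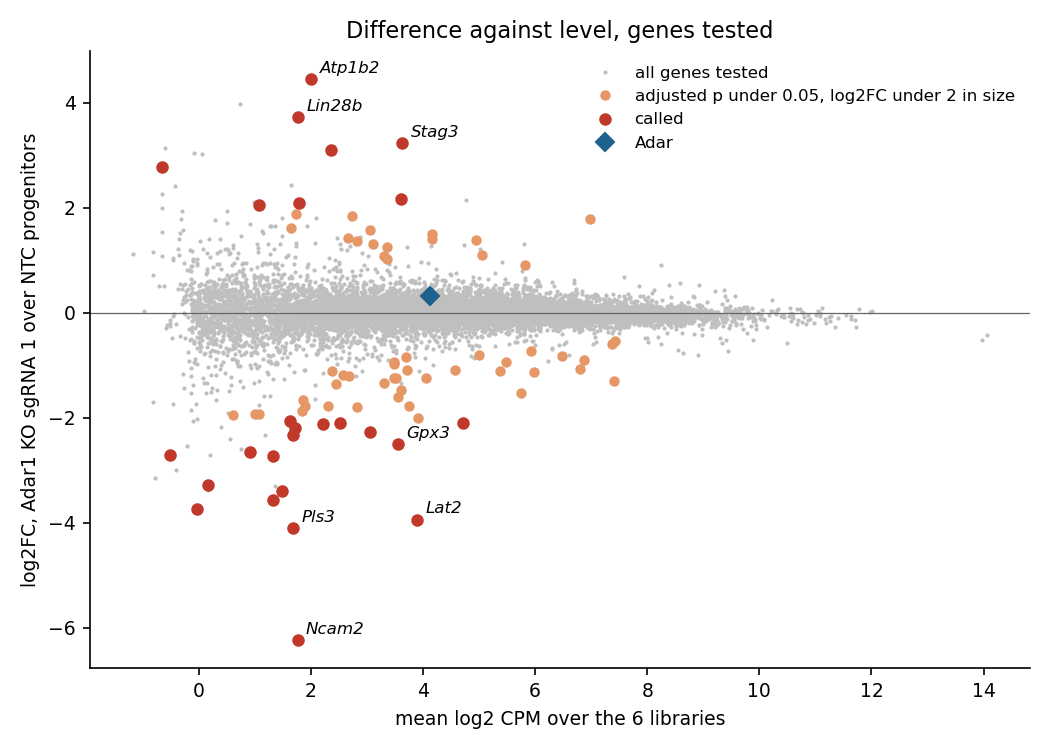
Difference between the KO and NTC progenitors (log2) against mean level over the 6 libraries (log2 CPM) for the 10356 genes tested, with red points for the 26 called, orange points for the others with an adjusted p under 0.05 and a blue diamond for Adar. Most genes (92.2%) lie within 0.5 of 0, and Adar (0.31) is among them.

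Ncam2 and Atp1b2 had the largest differences, in opposite directions. Ncam2, a neural cell adhesion molecule, measured -1.90, -1.28 and -0.87 log2 CPM in KO replicates 1, 2 and 3 and 4.30, 5.14 and 5.19 in NTC. The gene was thus near the floor in every KO library and well expressed in every NTC library. It was lower in KO by 6.22 on the log2 scale (SE 0.34, adjusted p = 0.000118). On a common scale given below, ER-Hoxb8 progenitors with no guide were low as well, and NTC was the group with a high level. Atp1b2, the beta 2 subunit of the sodium-potassium pump, which also acts in cell adhesion, measured 3.76, 4.55 and 4.38 in KO and -0.27, -0.08 and -0.31 in NTC. Here the KO libraries were the high ones, with a rise of 4.45 (SE 0.25, adjusted p = 0.000118). The list of Ncam genes and sodium pump subunits has 8 members, all tested, of which Atp1b2 alone rose and Ncam2 alone fell, with a median of 0.03.

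Lin28b, Zfp423 and Prkch rose. Lin28b, an RNA-binding protein of fetal blood progenitors that blocks maturation of the let-7 microRNAs, measured 3.66, 3.64 and 3.63 log2 CPM in KO replicates 1, 2 and 3 and 0.19, -0.25 and -0.19 in NTC. All 3 KO libraries were high and close together. The rise was 3.72 (SE 0.22, adjusted p = 0.000121). Of the 12 genes in the LIN28 and fetal list 4 were tested and Lin28b alone passed, with a median of 0.39. Of the 4, 3 had an unadjusted p under 0.05, all higher and Lin28b among them, beside 6.51% of all genes. The list was chosen with earlier results of these data known, so this share is no independent evidence. Zfp423, a zinc finger transcription factor, measured 2.80, 2.97 and 2.71 in KO and 0.69, 0.82 and 0.70 in NTC. Every KO library exceeded every NTC library, and the rise was 2.09 (SE 0.21, adjusted p = 0.0033). Prkch, the eta form of protein kinase C, measured 3.67, 4.03 and 4.06 in KO and 0.95, 1.45 and 0.05 in NTC. It rose by 3.10 (SE 0.33, adjusted p = 0.0033), although the NTC libraries were spread more widely than the KO libraries.

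Few cell division genes passed the test. E2f2, a transcription factor of the S phase programme, measured 1.60, 2.05 and 2.63 in KO and 0.04, -0.24 and 0.35 in NTC. The KO libraries were higher by 2.04 (SE 0.33, adjusted p = 0.0276). That call was lost without KO replicate 2 or 3 or without any one NTC replicate, with an adjusted p of up to 0.179. It was the 1 gene to pass of 11 tested in the E2F and RB list, whose median was 0.04. None of the 25 S phase genes passed in limma, and 0 had an unadjusted p under 0.05 (median -0.08). Of the 25 G2/M genes Fam64a alone passed, and the median was 0.00. Fam64a, which is expressed in mitosis, measured 2.98, 3.13 and 2.61 in KO and 4.50, 5.09 and 5.13 in NTC. It fell by 2.00 (SE 0.21, adjusted p = 0.0033), which before rounding was just short of the limit of 2 in size, so the gene is not among the 26.

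Lat2 and Pls3 fell. Lat2, a membrane adaptor that links Fc and other immune receptors to downstream signals, measured 1.18, 2.39 and 2.20 log2 CPM in KO replicates 1, 2 and 3 and 5.19, 6.21 and 6.18 in NTC. Replicate 1 was the lowest library of each group, yet the groups were far apart. The gene fell by 3.94 (SE 0.36, adjusted p = 0.00189). Among 15 tested immunoreceptor adaptors and kinases no other passed, and the median was 0.05. Fcer1g, the Fc receptor gamma chain and the most abundant of them, differed by -0.01 (adjusted p = 0.999). Pls3, an actin-bundling plastin, measured -0.22, -0.50 and -0.37 in KO and 3.41, 4.11 and 3.70 in NTC. Its KO libraries lay in a narrow band near 0, and it fell by 4.11 (SE 0.25, adjusted p = 0.000121).

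Gpx3, Fah and Ambra1 fell as well. Gpx3, the secreted glutathione peroxidase, measured 2.61, 2.13 and 2.16 in KO and 4.82, 4.88 and 4.70 in NTC. The NTC libraries were the high ones, and the gene fell by 2.50 (SE 0.18, adjusted p = 0.000248). Fah, the last enzyme of tyrosine breakdown, measured -1.68, -1.46 and -2.53 in KO and 2.32, 1.77 and 1.43 in NTC. One KO library of Fah was below the level of 3 counts, and the gene fell by 3.73 (SE 0.43, adjusted p = 0.0046). With log2(CPM + 1) the difference in Fah was -1.93. Ambra1, a regulator of autophagy and of cyclin D turnover, measured 3.54, 3.77 and 3.68 in KO and 5.36, 5.58 and 6.33 in NTC. It was lower in every KO library and fell by 2.09 (SE 0.23, adjusted p = 0.0033). In the list of glutathione peroxidases and NRF2 targets 2 of 11 tested genes fell, Gpx3 and Slc7a11, and all 11 differences were negative with a median of -0.19. Slc7a11, the cystine importer, fell by 0.80 (adjusted p = 0.022) but passed in 1 of the 6 fits that leave out a library, that without NTC replicate 1, and reached an adjusted p of 0.148. None of 19 tested genes of sterol and fatty acid synthesis passed in limma, but 2 passed with the replicate block. In limma 3 had an unadjusted p under 0.05, beside 6.51% of all genes, and the median was 0.16. Scd1, a fatty acid desaturase, measured 4.54, 6.43 and 6.56 in KO and 2.54, 4.39 and 4.14 in NTC, so that replicate 1 was the low library of each group. Its difference of 2.15 had an adjusted p of 0.271 without the block and 0.000861 with it. For Scd2 the difference was 0.68 and the adjusted p 0.919 and 0.0132.

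Leaving out libraries in turn separated the 26 genes into firmer and weaker calls. In all 6 such fits 17 genes kept an adjusted p under 0.05, 6 of them higher and 11 lower in KO. The higher ones included Plp2, a membrane proteolipid (2.16). The lower ones included Tom1l1, an endosomal adaptor (-2.73), and Tmem144, a transmembrane protein (-2.32). The 9 others were E2f2, Gpc2, Hmgn1, Morn4, Taf9b, C1qtnf6, Gpr65, Mical1 and Pkib. Taf9b, a relative of a general transcription factor subunit (-3.27), was lost without NTC replicate 2 or 3, with an adjusted p of up to 0.0558. C1qtnf6, a secreted C1q-like protein (-2.65), was lost without the same libraries (up to 0.068). Gpr65, a proton-sensing receptor (-2.06), was lost without KO replicate 3 or NTC replicate 2 or 3 (up to 0.0568), and Mical1, which oxidises actin (-2.19), without KO replicate 2 or 3 or NTC replicate 3 (up to 0.0654). Pkib, an inhibitor of protein kinase A (-2.10), was lost without KO replicate 2 or NTC replicate 2 or 3 (up to 0.0783). Morn4 (-2.70) was lost in every fit but that without KO replicate 1 (up to 0.123) and Hmgn1, a nucleosome-binding protein (-2.27), in every fit but that without NTC replicate 1 (up to 0.126). With log2(CPM + 1) the differences were smaller, -1.78 for Taf9b, -1.74 for C1qtnf6 and -1.19 for Morn4.

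The counts themselves also moved with single libraries. Without NTC replicate 3, 15 genes were called in place of 26. The number at adjusted p under 0.05 was 31 and 28 without KO replicate 2 and 3 and 33 and 30 without NTC replicate 2 and 3, in place of 79. Without the filter on low values, which raises the number tested to 29956, 6 were called: Atp1b2, Gpx3, Lin28b, Ncam2, Pls3 and Zfp423. The replicate block gave 121 genes at adjusted p under 0.05. It ended 4 of the 79 calls, those of Tlr3, Dusp9 (1.60, adjusted p 0.052 with the block), Hormad2 (-1.36, 0.0535) and Pea15a (-0.93, 0.0535).

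Replicate 1 of each group stood apart in immediate early genes, a set picked after their values were seen. Egr1, an early growth response factor, measured -1.63, 2.80 and 3.21 log2 CPM in KO replicates 1, 2 and 3 and -1.29, 3.11 and 3.06 in NTC. Fos, a subunit of AP-1, measured 1.89, 6.08 and 5.85 in KO and 1.65, 4.85 and 5.22 in NTC. In both genes the low library was replicate 1 of its group, in KO and NTC alike. Without replicate 1 of both groups, an alternative chosen after seeing the data, 36 genes were called, 22 of them among the 26.

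A run of neighbouring genes on the X chromosome fell together. Order was read from RefSeq on GRCm38.p6, where 10242 of the 10356 tested symbols were found, whereas the deposited values were made on GRCm39. Bhlhb9, Tceal8, Wbp5 (now Tceal9) and Ngfrap1 (now Bex3) follow each other among tested genes and belong to a mammalian cluster of small Bex, Tceal, Armcx and Gprasp genes, many of them expressed in neurons. Wbp5 measured -0.19, -0.10 and -0.31 log2 CPM in KO replicates 1, 2 and 3 and 2.53, 3.70 and 3.33 in NTC. Ngfrap1, which encodes a partner of the p75 neurotrophin receptor, measured -0.50, -0.68 and -0.18 in KO and 2.33, 3.74 and 3.27 in NTC. Both were low in all KO libraries, and NTC replicate 1 was the lowest NTC library of both. Wbp5 fell by 3.39 (SE 0.32, adjusted p = 0.00245) and Ngfrap1 by 3.57 (SE 0.37, adjusted p = 0.0033).

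Bhlhb9 measured 1.39, 1.20 and 0.90 in KO and 3.23, 3.04 and 3.56 in NTC. It fell by 2.12 (SE 0.23, adjusted p = 0.0033). Tceal8 measured 0.63, 1.21 and 0.89 in KO and 2.21, 3.08 and 3.03 in NTC. The groups were separate in both genes, with a fall of 1.87 for Tceal8 (SE 0.30, adjusted p = 0.024). Tceal8 passed in 1 of the 6 fits that leave out a library, that without NTC replicate 1, and reached an adjusted p of 0.119. On either side the neighbours Gprasp1 (0.02) and Morf4l2 (-0.06) did not pass. A little further out Armcx3 fell by 1.79 (adjusted p = 0.00864), a call lost without NTC replicate 2 or 3 (0.0505 and 0.0568). The Bex, Tceal, Armcx and Gprasp list has 22 genes, the neighbour Morf4l2 included. Of these 9 were tested, 5 fell and none rose, beside 0.763% of all genes that passed. The median was -1.79 beside -0.01 over all genes. The list was chosen with earlier results of these data known and holds the genes of the run. These shares are thus a description and no independent evidence about the family. The 13 other members did not reach the level for testing, Bex1 for example lying between -2.51 and -1.90. Among them Armcx1 was lower in every KO library (-1.77 to -1.29, beside -0.50 to -0.41 in NTC). Tceal5 was higher in every KO library (-2.35 to -1.57, beside -3.43 to -3.06 in NTC).

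**Figure D3:**
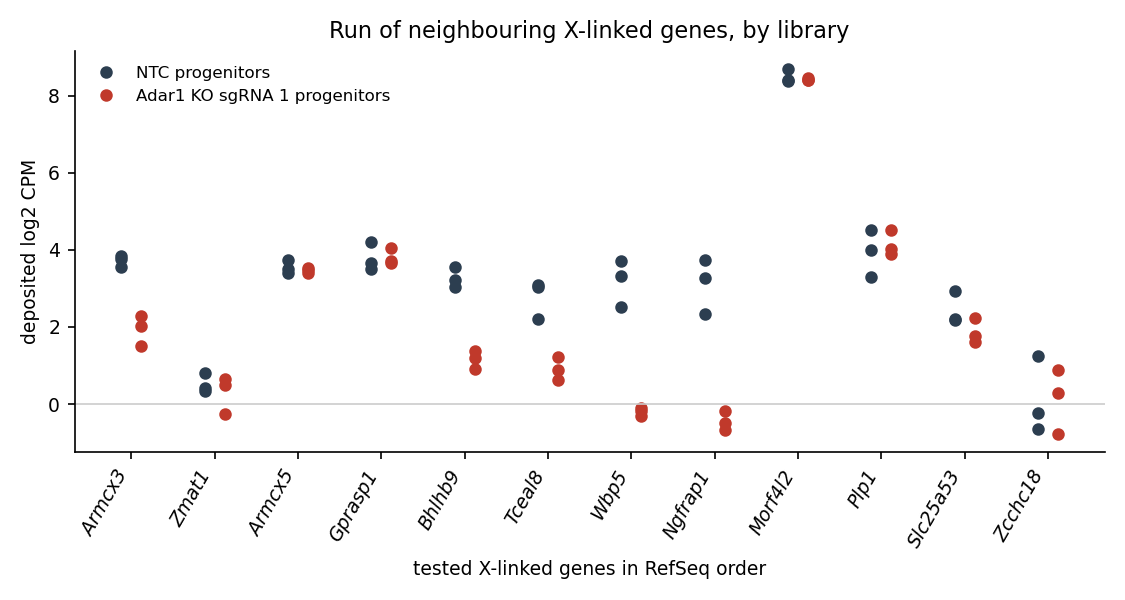
Level (log2 CPM) in each KO and NTC progenitor library, 1 point per library, of 12 tested genes in their order along the X chromosome. The groups are separate from Bhlhb9 to Ngfrap1 and at Armcx3, and they overlap at Gprasp1 and Morf4l2.

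Promoters of the run are shown because its members moved together. Each is a RefSeq window on GRCm38.p6, read on the strand of the gene: chrX:136270003-136270302 (+) for Bex3, chrX:136244830-136245129 (+) for Tceal9, chrX:136172202-136172501 (-) for Tceal8 and chrX:135885601-135885900 (+) for Bhlhb9. Capitals mark CTCANGTGACC, searched on both strands, which holds the E-box CACGTG where N is C. It is the longest stretch with 1 free base that the windows of Bex3, Tceal9 and Tceal8 share, and was looked for after their values were seen.
Bex3: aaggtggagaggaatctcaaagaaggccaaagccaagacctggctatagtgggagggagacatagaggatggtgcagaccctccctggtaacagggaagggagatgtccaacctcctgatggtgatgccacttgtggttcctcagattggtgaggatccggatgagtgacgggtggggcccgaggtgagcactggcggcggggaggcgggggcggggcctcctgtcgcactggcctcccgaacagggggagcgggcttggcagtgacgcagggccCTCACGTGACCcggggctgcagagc
Tceal9: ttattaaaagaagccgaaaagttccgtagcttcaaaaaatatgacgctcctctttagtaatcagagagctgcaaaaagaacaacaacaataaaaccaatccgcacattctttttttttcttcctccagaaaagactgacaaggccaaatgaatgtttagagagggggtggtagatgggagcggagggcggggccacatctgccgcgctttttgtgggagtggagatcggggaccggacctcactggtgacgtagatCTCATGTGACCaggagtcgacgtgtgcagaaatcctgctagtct
Tceal8: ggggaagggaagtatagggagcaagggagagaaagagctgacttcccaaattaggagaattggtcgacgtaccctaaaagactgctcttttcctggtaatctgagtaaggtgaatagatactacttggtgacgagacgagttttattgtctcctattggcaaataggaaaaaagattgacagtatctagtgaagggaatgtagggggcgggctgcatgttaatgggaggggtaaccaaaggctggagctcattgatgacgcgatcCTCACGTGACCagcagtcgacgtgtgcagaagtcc
Bhlhb9: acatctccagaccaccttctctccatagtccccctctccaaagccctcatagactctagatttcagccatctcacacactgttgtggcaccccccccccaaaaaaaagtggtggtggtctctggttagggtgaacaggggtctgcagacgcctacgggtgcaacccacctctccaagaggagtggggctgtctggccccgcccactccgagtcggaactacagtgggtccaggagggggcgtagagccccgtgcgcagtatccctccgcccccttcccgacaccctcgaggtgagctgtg
The first 3 windows hold 1 match each and Bhlhb9 holds 0. Among 32851 RefSeq promoter windows of this length 79 (0.24%) hold it. Of the 22 genes in the Bex, Tceal, Armcx and Gprasp list, which includes Morf4l2, 21 have such windows, 28 in number, of which 4 hold it. A match is a description and no evidence of binding.

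Stag3 and Gpc2, a pair of neighbours on chromosome 5, rose together. Stag3, a cohesin subunit of meiosis, measured 5.54, 4.79 and 5.41 log2 CPM in KO replicates 1, 2 and 3 and 2.67, 1.39 and 1.98 in NTC. Gpc2, a glypican of the cell surface, measured 0.50, 0.70 and 0.98 in KO and -1.74, -2.55 and -1.83 in NTC. All KO libraries were high for both genes, and NTC replicate 2 was the lowest library for both. Stag3 rose by 3.23 (SE 0.32, adjusted p = 0.003) and Gpc2 by 2.77 (SE 0.44, adjusted p = 0.0253). In NTC replicate 2 Gpc2 was below the level of 3 counts (-2.21), and with log2(CPM + 1) its difference was 1.15. The call on Gpc2 was lost in every fit but that without NTC replicate 1, with an adjusted p of up to 0.197. Their extents overlap in RefSeq and the strand use of the library kit is not given. Reads of one may be counted for the other where their transcripts share sequence, which was not examined. Of 9 tested cohesin genes Stag3 alone passed, with a median of 0.05. The windows are chr5:138280259-138280558 (+) for Stag3 and chr5:138279888-138280187 (-) for Gpc2, from RefSeq on GRCm38.p6, shown because the pair moved together. Capitals mark CACGTG, searched on both strands, which 2349 of the 32851 windows hold (7.15%).
Stag3: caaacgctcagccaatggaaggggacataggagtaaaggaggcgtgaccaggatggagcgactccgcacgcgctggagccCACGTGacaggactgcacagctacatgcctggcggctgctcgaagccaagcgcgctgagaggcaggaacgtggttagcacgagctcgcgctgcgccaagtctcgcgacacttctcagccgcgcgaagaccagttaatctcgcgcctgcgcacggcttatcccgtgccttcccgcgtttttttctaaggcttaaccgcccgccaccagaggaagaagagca
Gpc2: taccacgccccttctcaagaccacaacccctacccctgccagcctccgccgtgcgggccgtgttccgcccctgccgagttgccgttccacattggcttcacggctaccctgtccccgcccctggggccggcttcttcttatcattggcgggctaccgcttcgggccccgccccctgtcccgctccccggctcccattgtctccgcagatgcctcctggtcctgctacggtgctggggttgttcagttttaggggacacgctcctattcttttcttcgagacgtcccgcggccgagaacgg
The Stag3 window holds 1 match and that of Gpc2 holds 0.

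Most genes next to a called gene did not pass. The 26 genes have 51 distinct tested neighbours, of which 7 passed (13.7%, beside 0.763% of all genes tested), and the median difference of the others was 0.03. Of the 7, Stag3, Gpc2, Wbp5 and Ngfrap1 are themselves among the 26 and are counted as each other's neighbours in pairs. The 13.7% is thus partly the called genes counted against themselves. Some neighbours overlap the called gene or are its relatives. Ncam2 stands between D16Ertd472e (-0.18) and Mrpl39 (0.03), and Lin28b between Prep (-0.01) and Hace1 (0.07). Trp53, the p53 tumour suppressor, is the neighbour of Atp1b2 and moved the other way. It measured 7.23, 7.15 and 7.10 log2 CPM in KO and 7.75, 7.68 and 7.65 in NTC, so that each KO library was below each NTC library. It fell by 0.54 (SE 0.10, adjusted p = 0.0439), but it passed in none of the 6 fits that leave out a library, where the adjusted p was 0.0803 to 0.303. Galc, a lysosomal galactosylceramidase, and its neighbour Gpr65 both fell. Galc fell by 1.34 (adjusted p = 0.018), a call lost without KO replicate 2 or 3 or NTC replicate 2 or 3 (up to 0.116). Away from the 26 genes, 2 further pairs of neighbours passed together, Gstm5 with Gstm2 and Serpinb9f with Serpinb9g, which are paralogs in which reads are hard to assign. Of the 6 fits that leave out a library, Gstm2 was lost in 5 (up to 0.24), Gstm5 in 4 (up to 0.119) and Serpinb9f in 3 (up to 0.113). Serpinb9f was also lost in the fit of 4 groups (adjusted p = 0.636). Serpinb9g is a granzyme inhibitor of the serpin family named after its values were seen. It measured 7.82, 7.94 and 7.83 in KO and 6.25, 6.16 and 5.86 in NTC, a rise of 1.77 (SE 0.12, adjusted p = 0.000248).

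Cdkn1a, a target of p53, fell. The gene, which encodes the cell cycle inhibitor p21, measured 5.33, 5.55 and 5.38 log2 CPM in KO replicates 1, 2 and 3 and 6.39, 6.67 and 6.61 in NTC. The KO libraries were the low ones, and the fall was 1.13 (SE 0.12, adjusted p = 0.0033). Of 15 tested p53 targets it alone passed. An unadjusted p under 0.05 was found for 5, all lower, beside 6.51% of all genes. In all, 13 of the 15 differences were negative, and the median was -0.18 beside -0.01 over all genes. Ccng1, cyclin G1, passed as well with the replicate block (-0.56, adjusted p = 0.119 without it and 0.012 with it). It also passed in the fit of 4 groups (adjusted p = 0.0415). Mdm2, the ubiquitin ligase of p53, differed by 0.00 (adjusted p = 0.999).

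No tested interferon-stimulated gene of either list passed as higher in the KO progenitors, although Oas1g came close. Isg15, a ubiquitin-like protein, measured 0.38, 0.55 and 0.46 log2 CPM in KO replicates 1, 2 and 3 and 0.52, 0.94 and 0.39 in NTC. The groups overlapped, with a difference of -0.15 (SE 0.31, adjusted p = 0.979). In the study's own list of 20 interferon-stimulated genes 10 were tested and none passed in limma, with a median of -0.13. Of the 10, 3 had an unadjusted p under 0.05, 1 higher and 2 lower, beside 6.51% of all genes. The study shows that list for these libraries without stating how it was chosen, so it is not taken as independent evidence. Oas1g, an oligoadenylate synthetase, had the largest positive value of the list at 0.72 (adjusted p = 0.0855). It passed narrowly in 2 other settings, eBayes without trend (0.0476) and the fit of 4 groups (0.0497). Among 38 other interferon-stimulated genes 27 were tested, none rose and Psmb8 fell, with a median of -0.24. Of the 27, 3 had an unadjusted p under 0.05, all lower. Ifi27, an interferon-inducible gene that is in neither list and is named after its values were seen, measured 2.88, 2.85 and 2.53 in KO and 4.31, 4.42 and 4.32 in NTC. It was lower in each KO library and fell by 1.60 (SE 0.16, adjusted p = 0.003), a call kept in all 6 fits that leave out a library.

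Psmb8, a subunit of the immunoproteasome, measured 6.08, 6.19 and 5.91 in KO and 6.96, 7.02 and 6.67 in NTC. It fell by 0.82 (SE 0.13, adjusted p = 0.0253) and passed in 1 of the 6 fits that leave out a library, that without NTC replicate 3, with an adjusted p of up to 0.162. It was also the 1 gene to pass of 11 tested in the MHC class I list, where 10 differences were negative. Of the 11, 5 had an unadjusted p under 0.05, all lower, beside 6.51% of all genes. The median was -0.38 beside -0.01 over all genes. With the replicate block 3 of the list passed, Psmb8, H2-K1 (-0.56, adjusted p = 0.0519 without it and 0.0341 with it) and H2-D1 (-0.76, 0.0955 and 0.0371). H2-K1 also passed with log2(CPM + 1) (0.0462), with libraries centred on their median (0.0433) and with library weights (0.0478). None of 14 tested interferon receptors and JAK-STAT genes passed in limma, 1 having an unadjusted p under 0.05 (median -0.02). None passed among the 7 Aicardi-Goutieres genes (median -0.05) or 6 tested inflammatory cytokines (median 0.06), and 0 of either had an unadjusted p under 0.05. With the replicate block 3 of the 6 cytokines had an unadjusted p under 0.05, and none passed.

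Of 15 tested genes for sensing double-stranded RNA, Tlr3 alone passed. Tlr3, the endosomal receptor for double-stranded RNA, measured -0.63, -0.35 and -0.13 log2 CPM in KO and 2.17, 1.18 and 1.40 in NTC. The KO libraries were all below 0 and NTC replicate 1 was the highest. It fell by 1.96 (SE 0.36, adjusted p = 0.0466), and with log2(CPM + 1) the difference was -1.22. None of the 6 fits that leave out a library kept it (adjusted p 0.0868 to 0.166), nor did the fit with the replicate block (0.0679). Ifih1 measured 4.03, 3.47 and 3.52 in KO and 4.11, 3.67 and 3.56 in NTC, with overlap and a difference of -0.11 (adjusted p = 0.978). In the integrated stress response list Slc7a11 alone passed of 19 tested genes, and the median was 0.03.

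Few markers of blood cell types passed. None of 14 tested neutrophil granule genes passed in limma, and 6 had an unadjusted p under 0.05, beside 6.51% of all genes. However, 12 differences were negative, and the median of the 14 was -0.55 beside -0.01 over all genes. With the replicate block 3 passed, all lower: Mpo, Elane and Ctsg. The summed level of the list was 23600, 18200 and 17200 CPM in KO replicates 1, 2 and 3 and 31300, 26300 and 22900 in NTC, most of it Mpo. The part of these genes in the other differences was not tested, and in bulk RNA fewer cells of a type cannot be told apart from less RNA per cell. Elane, the neutrophil elastase, measured 9.16, 9.07 and 8.88 in KO and 9.62, 9.74 and 9.49 in NTC, a difference of -0.58 that did not pass (adjusted p = 0.0684) without the block and passed with it (0.0134). Ctsg, cathepsin G, differed by -0.57 (0.0684 without and 0.011 with it). Both also passed with quantile normalization (adjusted p = 0.0301 for Elane and 0.0169 for Ctsg). Cd68, a lysosomal protein of macrophages, measured 6.33, 6.54 and 6.41 in KO and 7.21, 7.58 and 7.20 in NTC. It was lower in each KO library and fell by 0.91 (SE 0.13, adjusted p = 0.0157), a call lost without any one KO replicate (up to 0.0993). No other of the 12 tested macrophage genes passed, and their median was 0.00.

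The remaining lists held no gene that passed in limma, and at an unadjusted p under 0.05 they held 1 myeloid transcription factor and 1 dendritic cell gene. Medians were -0.06 for 13 tested myeloid transcription factors, -0.02 for the 1 tested mast cell gene, -0.71 for 2 eosinophil genes, 0.20 for 4 erythroid and megakaryocyte genes, 0.72 for 2 dendritic cell genes and -0.18 for the 1 tested sex-linked gene. Cebpa, a transcription factor of granulocyte fate, was at the lowest value of the table in all 3 KO libraries and at -0.32, -0.90 and -1.86 in NTC replicates 1, 2 and 3. It was thus detected in NTC alone and did not reach the level for testing.

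**Figure D4:**
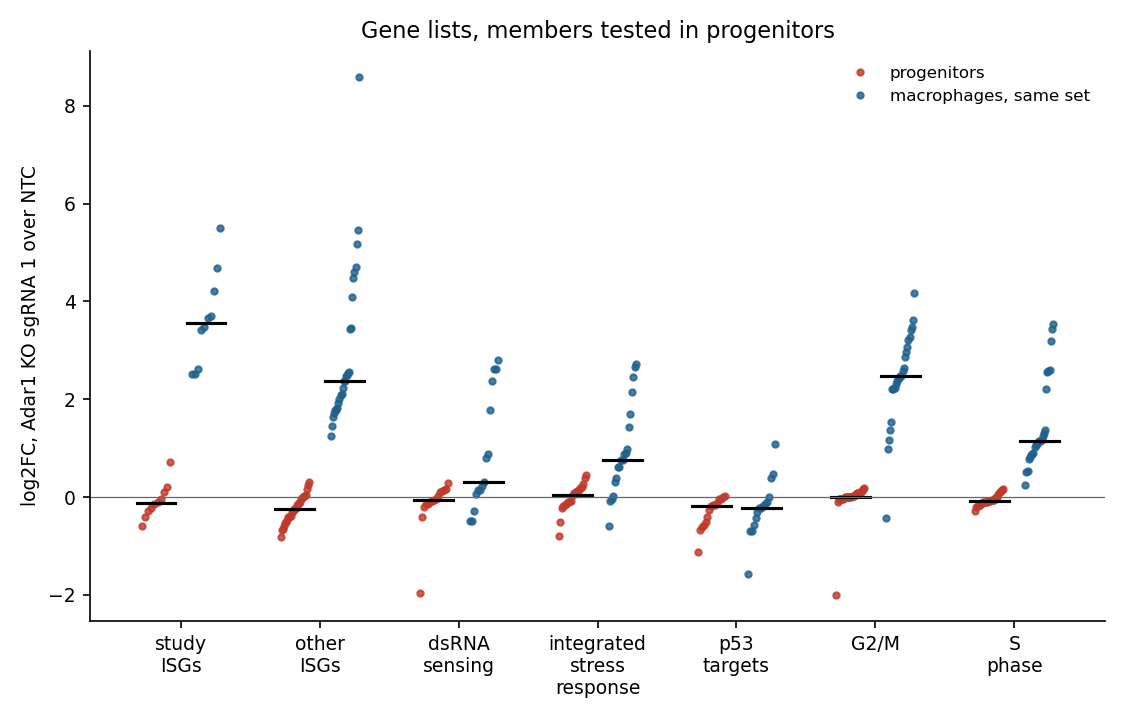
Difference between KO and NTC (log2) in progenitors and in macrophages of the same normalization set, 1 point per gene tested in progenitors, for 7 of the gene lists, with black lines at the medians. Progenitor medians lie between -0.24 and 0.03, and the points of both interferon lists (ISGs) lie above 0 in macrophages.

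Macrophages labelled with the same guide and with NTC were also sequenced, after a week in M-CSF, in libraries that the progenitor comparison does not use. The labels do not say whether they came from the same lines. Depth ran from 28.5 to 42.0 M counts in KO macrophages and from 19.6 to 27.7 M in NTC macrophages. In limma 2420 of 11119 genes (21.8%) had an adjusted p under 0.05, 1606 higher (14.4%) and 814 lower (7.32%) in KO. One of the NTC macrophage libraries was normalized apart, so 3 KO and 2 NTC libraries entered this fit. All 26 genes called in progenitors were tested there, and 18 passed in the same direction, 5 higher and 13 lower. A further set of macrophages, grown in the baricitinib experiment without drug (0 uM) and normalized apart, had 2829 of 11339 genes (24.9%) at adjusted p under 0.05, 1291 higher (11.4%) and 1538 lower (13.6%). Of 22 called genes tested in it 19 passed in the same direction and 1, E2f2, in the opposite one (-0.81). The same direction was found in both sets for 16 genes.

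**Figure D5:**
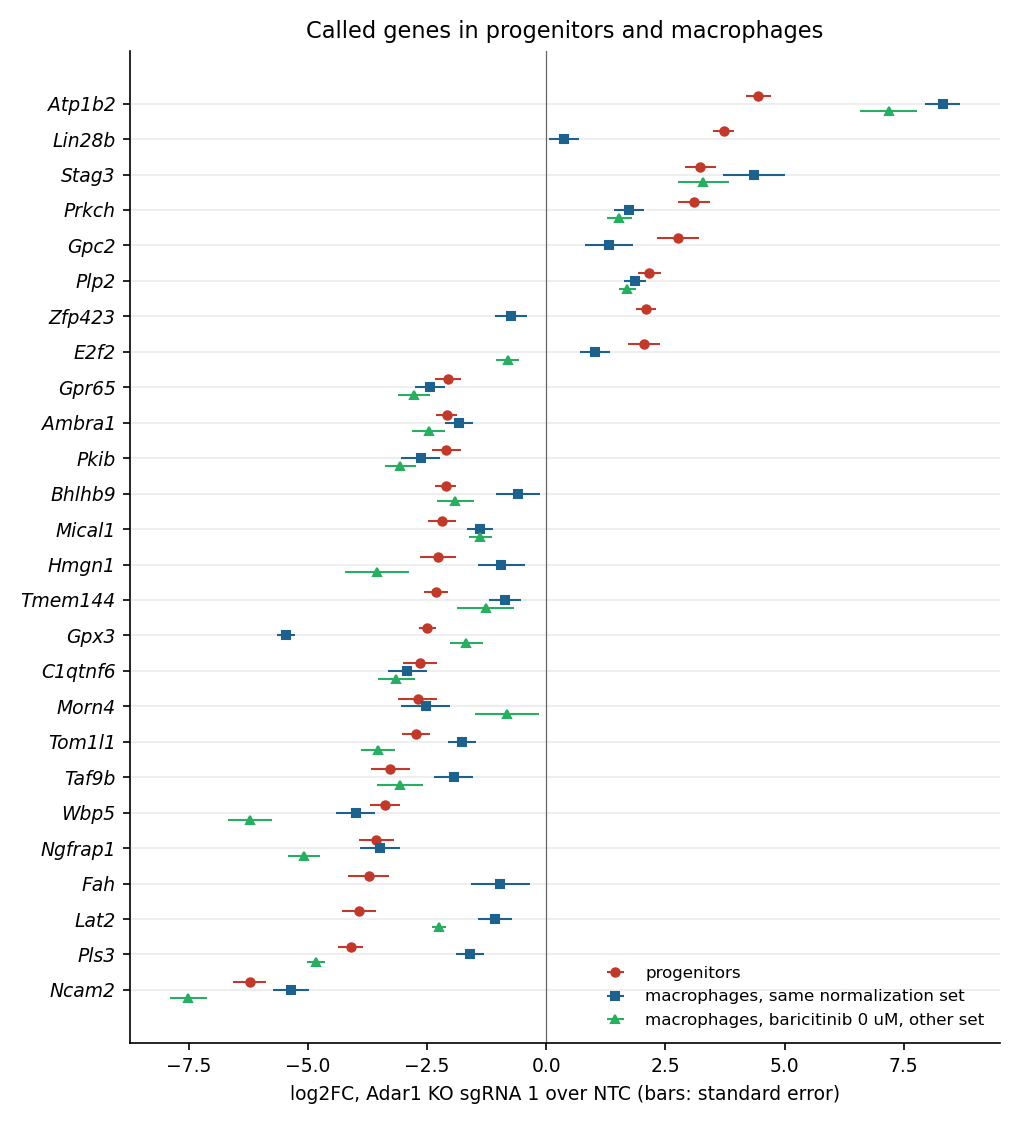
Difference between KO and NTC (log2) of the 26 genes in progenitors beside that in macrophages of the same normalization set and, where tested, in macrophages at 0 uM baricitinib, with bars for the standard error. Atp1b2 (8.32 and 7.18) and Ncam2 (-5.35 and -7.51) kept their sign in both macrophage sets, and Lin28b (0.37) was near 0 in the first.

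The interaction term of limma, the KO to NTC difference in macrophages minus that in progenitors, passed for 6 of the 26 genes. Of these, Lin28b and Zfp423 were near the lowest value in macrophages, where the term mostly restates the progenitor rise. Over all genes it passed for 1508 of 11119 (13.6%). Without NTC macrophages replicate 1 it was 1004 genes, with the lone NTC macrophage library assumed to vary like the other groups. Atp1b2 measured 5.57 log2 CPM in KO macrophages and -2.75 in NTC macrophages, so that its difference of 8.32 exceeded that in progenitors by 3.87 (adjusted p = 0.000303). That NTC mean is below the level of 3 counts, so the size for Atp1b2 depends on the constant added before the log, and the interaction was 2.02 to 4.55 over the other settings. Gpx3 fell by 5.46 in macrophages, a change larger in size by 2.96 than in progenitors (interaction -2.96, adjusted p = 2.885e-05). Lin28b was near the lowest value in macrophages, at -2.80 in KO and -3.17 in NTC, both below the level of 3 counts. Its difference there was 0.37 (interaction -3.36, adjusted p = 0.000307), so the interaction mostly restates the progenitor rise. Zfp423 was near the lowest value in macrophages too, with a difference of -0.74 (interaction -2.83, adjusted p = 0.00151, and -1.74 with log2(CPM + 1)). Pls3 fell by 1.60 in macrophages (interaction 2.51, adjusted p = 0.0012, and 1.52 with log2(CPM + 1)). Lat2 differed by -1.08 there (adjusted p = 0.0512, interaction 2.85, adjusted p = 0.00225), and by -2.24 in the macrophages at 0 uM baricitinib.

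The interferon-stimulated genes also differed between the stages. The filter of this fit lets in genes that are high in macrophages alone, which applies to 10 genes of the study's list and 9 of the others, so the counts are given for genes also tested in progenitors. Of the study's list all 10 such genes rose in macrophages (median 3.56) and 10 passed the interaction. Among the other interferon-stimulated genes all 27 rose in macrophages (median 2.38) and 25 passed the interaction, beside 1358 of all 10356 genes tested in progenitors. In the macrophages at 0 uM baricitinib, where 11.4% of all genes were higher, 9 of the 10 and 23 of the 27 rose (medians 3.11 and 2.22). Isg15, for example, rose by 4.69 in macrophages, and Ifih1 rose by 2.63. Adar mRNA also rose in KO macrophages, to 7.04 beside 5.70 in NTC (1.34, adjusted p = 0.000976). The interaction for Adar was 1.03 (adjusted p = 0.0354). It was kept in 1 of 11 fits that leave out a library, that without NTC progenitors replicate 2, and lost in the other 10 (adjusted p 0.0523 to 0.0843).

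Cell division genes moved in opposite directions in the macrophage sets. Of the 25 G2/M genes 24 rose in the same-set macrophages (median 2.48) and 23 passed the interaction, whereas 21 fell at 0 uM baricitinib (median -1.60). Of the 25 S phase genes 24 rose in the former, 23 passed the interaction and all 25 fell in the latter (median -1.66). Over all genes tested, 14.4% were higher in the former, 13.6% passed the interaction and 13.6% were lower in the latter. Fam64a rose by 2.87 in the former and fell by 1.56 in the latter (adjusted p = 0.0184).

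A second guide against Adar1 was sequenced in progenitors in a different normalization set and with the same NTC libraries as controls. Its values were put on a common scale and are set beside those of guide 1 without a test, since the comparisons share their controls and any difference between sets enters the levels. For Adar the differences from NTC were 0.32 with guide 1 and 0.40 with guide 2. For Ncam2 they were -6.20 and -7.39. On a scale that adds ER-Hoxb8 progenitors labelled with no guide and primary bone marrow progenitors, Ncam2 averaged 4.92 in NTC, -1.27 with guide 1, -2.49 with guide 2 and -2.14 in bone marrow progenitors. In the ER-Hoxb8 progenitors with no guide it measured -2.19, -1.05 and -2.77 in replicates 1, 2 and 3. The NTC line was thus the group with a high level of Ncam2, and the other 4 groups were low.

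Values with the guides are set side by side for the other called genes with the 5 largest differences in each direction. Fah differed from NTC by -3.70 with guide 1 and by -3.82 with guide 2, and Ngfrap1 by -3.55 and -1.63. For Atp1b2 the values were 4.45 with guide 1 and -1.47 with guide 2. Stag3 gave 3.24 and -3.55, Prkch gave 3.11 and -0.56, and Gpc2 gave 2.74 and -1.33, with 0 counts of Gpc2 in the guide 2 libraries. Lin28b gave 3.72 and 0.79, Pls3 gave -4.09 and 0.11, and Lat2 gave -3.93 and 0.19, so that guide 2 was close to NTC for Pls3 and Lat2. The ER-Hoxb8 progenitors with no guide varied among themselves, from 2.27 to 7.58 for Lat2 and from -1.63 to 5.30 for Pls3. Guide 2 values are not given for the other genes named above, whose differences describe the guide 1 and NTC lines alone.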

How the data were processed

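RNA from ER-Hoxb8 progenitors was sequenced, and the authors deposited log2 CPM values for 29957 entries, 29956 of them with a gene name, made with kallisto 0.46.0 on GRCm39 and TMM normalization in edgeR. Libraries fall into sets that share a lowest value, and the 6 progenitor libraries are in 1 set. Genes above 1 CPM in at least 3 of the 6 libraries entered limma 3.58.1 (R 4.3.3), fitted as group means with a trended eBayes and read two-sided, and p-values were adjusted by Benjamini-Hochberg across every gene that entered. A gene was called at adjusted p under 0.05 and a log2 difference of 2 or more in size. Depth was worked out from the smallest step between values, since counts were not given, and a floor is 3 counts. Macrophages were fitted within their own sets, of 11 and 33 libraries. For guide 2, CPM were rebuilt and scaled by a trimmed mean of log ratios, as log2(CPM + 0.1). Fits were tested on simulated data.

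The members, the 30 gene lists and the tests were chosen with earlier results of these data known. Genes named are Adar, the 26 called genes, members of the lists, neighbours of called genes, genes whose call the replicate block ends, and others where stated. Replicates with the same number were correlated after removal of the group means (r = 0.417, 0.193 and 0.257), the highest of the pairings of each, so a replicate block was tried. It gave 27 called genes, 26 of them shared, and ended the call of 4 of the 79 genes at adjusted p under 0.05. Other alternatives were the filter, the pseudocount, the normalization, library weights, no trend, a fit of 4 groups, a lower fold limit and leaving out each library. Fits that leave out a library kept the genes tested fixed. A first run had filtered again, which gave 10 to 31 called genes. Figures used Python 3.11.15 and matplotlib 3.10.9.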

Additional observations from a re-analysis of the deposited data

Results flagged for a closer look

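The effect of the KO label on gene expression was compared between macrophages and progenitors of the same normalization set by the interaction term of limma, and the values here are macrophages minus progenitors on the log2 scale, each with an adjusted p under 0.05. The term passed for 1508 of 11119 genes tested (13.6%), for 20 genes of the study's interferon list and for 34 of the other interferon-stimulated genes. Of the interferon genes in the fit, 10 and 9 passed the filter on low values only through macrophages, and among those also tested in progenitors the term passed for 10 of 10 and 25 of 27. It passed for 23 of 25 G2/M genes and for 23 of 25 S phase genes. Among called genes it was 3.87 for Atp1b2, -2.96 for Gpx3, 2.85 for Lat2, -3.36 for Lin28b, 2.51 for Pls3 and -2.83 for Zfp423. Lin28b and Zfp423 were near the lowest value in macrophages, so their values mostly restate the progenitor rise. In other settings the value was 2.02 to 4.55 for Atp1b2, 1.52 to 2.80 for Pls3 and -3.18 to -1.74 for Zfp423. Among other genes it was 4.86 for Fam64a, 2.75 for Tlr3, 2.55 for Psmb8, 2.23 for Slc7a11, 1.13 for Cdkn1a, 0.81 for Cd68 and 1.03 for Adar. The values for Adar and Cd68 lost an adjusted p under 0.05 in 12 of 19 and in 1 of 19 other settings, with adjusted p of up to 0.166 and 0.0611. The NTC macrophages entered with 2 libraries. The cell division genes went the other way in macrophages at 0 uM baricitinib, where 21 of 25 G2/M and 25 of 25 S phase genes fell (medians -1.60 and -1.66), beside 24 of 25 that rose in each list in the same-set macrophages, and Fam64a differed by -1.56, beside 2.87.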

How the results depend on the processing

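No single gene at adjusted p under 0.05 changed sign in any setting run, but 85 of 586 counts of passing list members moved. With the replicate block such counts went from 0 to 3 for neutrophil granule, 1 to 3 for MHC class I, 0 to 2 for sterol and fatty acid synthesis, 1 to 2 for p53 targets and 1 to 0 for sensing of double-stranded RNA, and the block changed no other call on a list member. At an unadjusted p under 0.05 the block gave more members of several lists. There were 9 of 27 other interferon-stimulated genes, 5 of 12 progenitor genes and 3 of 25 S phase genes, beside 3, 1 and 0 without it. For inflammatory cytokines there were 3 of 6 and for eosinophil genes 2 of 2, beside 0 and 0. The share of all genes under that limit with the block was not worked out. The 26 called genes numbered 6 without the filter on low values, 15 with a mean CPM above 5, 13 with log2(CPM + 1) and 68 with a log2 limit of 1, and 15 to 32 with 1 library left out. The 79 genes at adjusted p under 0.05 numbered 39 without the filter (11 of them shared), 121 with the replicate block (75 shared) and 120 on the common scale of 9 libraries (77 shared), an alternative chosen after seeing the data, and 28 to 83 with 1 library left out. The fit without the filter tests 29956 genes. A stricter filter tests 8356, which leaves out 11 of the 26, and the cause of the other shifts was not tested. The difference in Adar was 0.04 to 0.46 with 1 library left out and 0.21 to 0.38 in the other settings, and passed in none. The 1508 genes with an interaction numbered 972 without the filter and 1004 to 1581 with 1 library left out, the lowest without NTC macrophages replicate 1. Of the called genes, 16 to 19 passed in the same direction in macrophages of the same set with 1 library left out, and 19 in each such fit at 0 uM baricitinib. Of the 79 genes, 8 kept an adjusted p under 0.05 in every setting. Depth limits genes near the floor, such as Ncam2 and Fah in the KO libraries.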
